A study of Mus musculus with 12 samples.

Results

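The interferon regulatory factor (IRF) genes followed here are Irf1, Irf2, Irf3, Irf4, Irf5, Irf7, Irf8 and Irf9, taken by their symbols from the annotation of the array. They are 8 of 19505 genes tested, and each has 1 probe set, so no choice between probe sets arose. The cells were RAW 264.7, an established mouse line with macrophage character, and RNA from each sample was read on 1 Affymetrix array. All 4 groups received lipopolysaccharide (LPS, a bacterial outer membrane component that activates macrophages) at 500 ng/mL and had 3 arrays each. They were LPS alone, LPS with inulin (a plant fructan) at 500 µg/mL, LPS with TsSP at 50 µg/mL, and LPS with both agents at those doses. The abbreviation TsSP stands as in the labels, the design text mentions helminth products, and incubation lasted 6 hours at 37°C in 5% CO2. Because no array without LPS was used, the response of the IRF genes to LPS itself was not analysed here, and all changes below are changes among LPS-treated cells of a single line. Whether same-group arrays stem from different cultures is not stated in the labels. The p-values therefore set group differences against the spread of these arrays only, and that spread may be technical. The genes carry the Entrez numbers 16362 (Irf1), 16363 (Irf2), 54131 (Irf3), 16364 (Irf4), 27056 (Irf5), 54123 (Irf7), 15900 (Irf8) and 16391 (Irf9).

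IRF proteins are transcription factors that share an N-terminal DNA-binding domain with conserved tryptophans and recognise variants of the interferon-stimulated response element (ISRE). In macrophages that meet LPS, the kinases TBK1 and IKKe activate IRF3 and IRF7, which switch on the interferon beta gene. The secreted interferon then acts through STAT proteins, and IRF9 is the DNA-binding part of the complex ISGF3, with STAT2 as a partner, and this complex binds ISREs. IRF1 is induced by interferons and NF-kB and activates inflammatory and antigen presentation genes, IRF2 can compete with IRF1 for the same DNA, IRF5 acts downstream of the adaptor MyD88, IRF4 can compete with IRF5 for that adaptor, and IRF8 works with the lineage factor PU.1.

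With TsSP against LPS alone 4 of these 8 genes passed the test, as did 18.1% of all genes, and with inulin none did. Set against the inulin arrays, TsSP with or without inulin gave 6 of 8, where 16.7% of all genes passed. Irf1 fell 4.11-fold, Irf2 2.23-fold and Irf5 1.92-fold when TsSP was present with LPS, and Irf8 rose 3.69-fold. Irf3, Irf7 and Irf9 differed by 0.28 or less on the log2 scale in that comparison and did not pass the test, and Irf4 was below background on all 12 arrays. In RNA from whole cultures, fewer cells that express a gene and less of its RNA per cell cannot be told apart.

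The stretches of genome just before the starts of the 4 genes that changed are shown first, since Irf1, Irf2 and Irf5 moved one way with TsSP and Irf8 the other. Each is the 250 bases before the RefSeq transcription start on the plus strand of build GRCm38.p6, 5′ to 3′. They lie at chr11:53769764-53770013 for Irf1, chr8:46739495-46739744 for Irf2, chr6:29526375-29526624 for Irf5 and chr8:120736108-120736357 for Irf8. Capitals mark matches, on either strand, to the gamma-activated site (GAS, TTCNNNGAA, bound by STAT dimers), the ISRE core or the kB motif of NF-kB. The ISRE core was searched as GAAANNGAAA and the kB motif as GGGRNNYYCC. In these letters N is any base, R is A or G, and Y is C or T.
Irf1: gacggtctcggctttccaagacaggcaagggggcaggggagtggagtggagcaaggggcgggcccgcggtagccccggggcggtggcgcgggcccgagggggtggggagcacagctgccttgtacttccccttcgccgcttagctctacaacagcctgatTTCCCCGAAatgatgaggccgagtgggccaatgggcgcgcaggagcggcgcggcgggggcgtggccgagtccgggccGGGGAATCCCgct
Irf2: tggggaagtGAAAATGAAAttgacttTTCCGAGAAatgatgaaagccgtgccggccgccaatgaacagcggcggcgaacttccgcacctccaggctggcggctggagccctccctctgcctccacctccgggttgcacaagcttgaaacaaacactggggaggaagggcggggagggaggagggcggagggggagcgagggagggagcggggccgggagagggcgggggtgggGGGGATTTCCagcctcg
Irf5: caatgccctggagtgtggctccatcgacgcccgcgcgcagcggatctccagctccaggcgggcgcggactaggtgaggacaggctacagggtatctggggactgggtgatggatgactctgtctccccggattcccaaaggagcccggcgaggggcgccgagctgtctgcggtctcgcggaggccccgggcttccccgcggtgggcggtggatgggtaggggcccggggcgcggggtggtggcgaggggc
Irf8: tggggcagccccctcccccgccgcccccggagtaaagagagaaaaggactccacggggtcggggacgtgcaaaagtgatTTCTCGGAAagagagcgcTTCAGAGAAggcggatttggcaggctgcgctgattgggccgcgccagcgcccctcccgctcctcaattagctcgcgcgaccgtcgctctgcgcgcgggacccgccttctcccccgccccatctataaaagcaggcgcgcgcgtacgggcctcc

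In the Irf1 window a GAS match lay 90 to 82 bases before the start and a kB match 13 to 4 bases before it. The Irf2 window held an ISRE match at 241 to 232 bases, a GAS match at 224 to 216 bases and a kB match at 17 to 8 bases before the start. Irf8 had 2 GAS matches, at 171 to 163 and 153 to 145 bases, and the Irf5 window had no match to these letters. No match overlapped another. Of 32851 such windows in the RefSeq table, 7.02% held a GAS match, 2.98% an ISRE match and 7.25% a kB match, while 0.499% held both GAS and kB, and 10 windows (0.0304%) held all of them. The second annotated starts of Irf1 and Irf8, and the windows of Irf3, Irf4, Irf7 and Irf9, had no match. So the GAS letters stood before a gene that rose and before genes that fell. These are letter matches, and binding was not measured here.

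**Figure D1:**
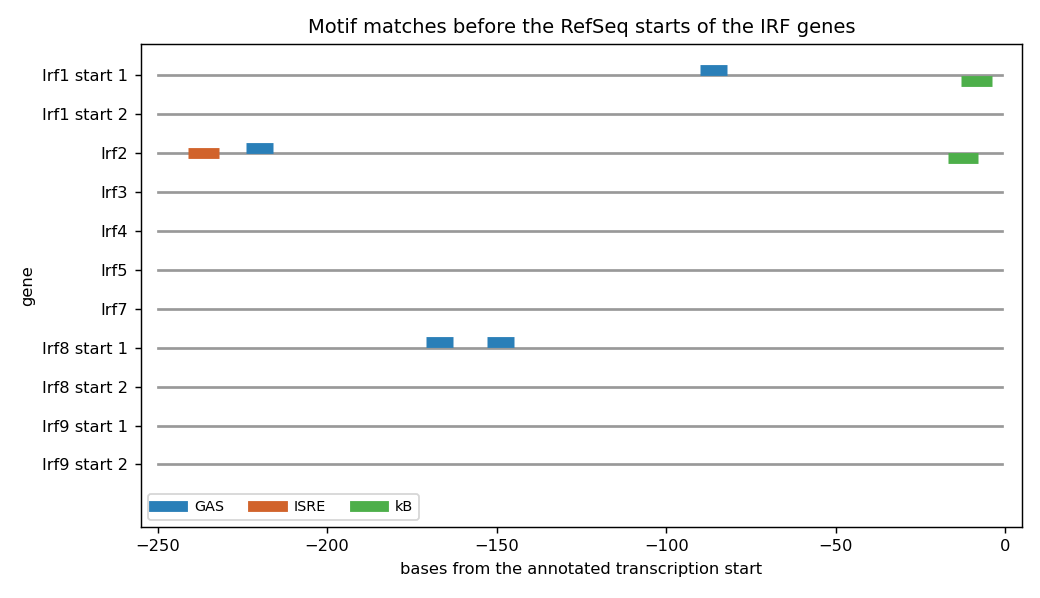
Positions of GAS (blue), ISRE (orange) and kB (green) matches in the 250 bases before each RefSeq start of the 8 IRF genes (x axis, bases from the start, with 1 line for each annotated start). Matches are seen in the first windows of Irf1 and Irf8 and in that of Irf2, and the other lines are empty.

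Arrays were similar in overall signal. Their median log2 signal over all probe sets ran from 5.16 (LPS replicate 1) to 5.30, and the brightest background probe of an array, used here as the background level, from 6.16 to 6.28. Of the macrophage markers checked, 8 of 12 measured were above background in at least 1 group, among them Adgre1, Csf1r, Itgam and Spi1, while Cd163 and Mrc1 were below it. Of dendritic cell markers 3 of 10 measured were above background (Flt3 and Zbtb46 were not), of B cell markers 1 of 7 (Blnk, and not Cd79a, Ms4a1 or Pax5), of T and NK cell markers 0 of 8, and of fibroblast and epithelial markers 1 of 8 (Dcn). Some markers also changed with TsSP: Lyz2 and Itgam rose 1.36-fold and 1.67-fold, and Adgre1, Bst2 and Blnk fell 2.08-fold, 1.49-fold and 2.78-fold. The log2 of the summed macrophage marker signal was 18.98 to 19.05 with LPS and 19.20 to 19.24 with TsSP, that of dendritic cell markers 16.23 to 16.44 and 15.90 to 15.99, and that of B cell markers 13.88 to 14.20 and 12.47 to 12.62. The B cell sum rests on Blnk (mean log2 signal 14.01 with LPS and 12.54 with TsSP), the other markers being below background. Most of the dendritic cell sum comes from Tcf4 (15.77 and 15.45) and Bst2 (14.68 and 14.10). Bst2 is also in the list of genes linked to IRF1 below, so these sums do not count cells. The part of these shifts in the changes of the IRF genes was not tested.

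TsSP was compared with LPS alone first. limma called 4 of the 8 IRF genes at an adjusted p under 0.05, against 18.1% of all genes (11.0% of all genes called higher and 7.08% lower). Of the IRF genes 3 were lower and 1 was higher, with a median log2 difference over the 8 of -0.28 against 0.02 over all genes. The share of higher genes among all calls was 60.8% on the deposited values and 50.9% after quantile normalization, and the 4 IRF calls stood under both. Of the 19505 genes, 9022 were above background in at least 1 group, as were 7 of the 8 members. The shares of all genes here and below thus include many genes below background, and shares among genes above it are not given here.

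Irf1 was read at log2 signals of 14.17, 14.21 and 14.03 with LPS alone. With TsSP the values were 12.00, 12.00 and 12.30. Inulin with LPS gave 14.29, 14.30 and 14, and the combination 11.78, 12.02 and 12.01. The 6 arrays with TsSP thus all lay well below the 6 without, with no overlap. The mean log2 signal was 14.14 ± 0.095 (SD, n = 3) with LPS and 12.10 ± 0.18 (SD, n = 3) with TsSP, a difference of -2.04 (SE 0.14, adjusted p = 1.71e-06).

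Irf2, whose product can act as an antagonist of IRF1, was at log2 signals of 12.66, 12.79 and 12.93 with LPS alone. The TsSP arrays read 11.81, 11.63 and 11.47. Inulin arrays read 12.55, 12.56 and 12.87, and those with both agents 11.66, 11.65 and 11.85. Again every array with TsSP was below every array without it. The difference with TsSP was -1.16 on the log2 scale (SE 0.14, adjusted p = 0.000135), so that the gene of this antagonist moved in the same direction as Irf1.

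Irf5, the MyD88-linked member, showed the same arrangement at smaller size. Its log2 signals were 12.08, 11.96 and 12.36 with LPS alone and 11.17, 11.14 and 11.28 with TsSP. They were 11.96, 11.99 and 12.15 with inulin and 11.18, 11.09 and 10.85 with both. Arrays with TsSP topped out at 11.28 and those without it began at 11.96. The TsSP difference was -0.94 (log2, SE 0.14, adjusted p = 0.000575).

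Irf8, the PU.1 partner, ran the other way. LPS alone gave log2 signals of 10.01, 9.62 and 9.76, and TsSP gave 11.72, 11.55 and 11.76. Inulin gave 10.14, 10.03 and 9.99, and the combination 11.52, 11.28 and 11.60. All 6 arrays with TsSP were above all 6 without. The mean rose from 9.79 ± 0.20 to 11.68 ± 0.11 (log2 signal, SD, n = 3 in each group), a difference of 1.88 (SE 0.14, adjusted p = 2.89e-06). It was 1.80 after quantile normalization.

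The members of the interferon-beta axis did not pass in TsSP against LPS alone. Irf7, the interferon-induced amplifier, had log2 signals of 17.16, 16.91 and 17.34 with LPS alone and 16.86, 17.03 and 16.69 with TsSP. It read 17.39, 17.32 and 17.43 with inulin and 16.73, 17.03 and 16.86 with both. The TsSP and LPS arrays overlapped, the inulin arrays sat above both TsSP groups, and the TsSP difference of -0.28 did not pass (SE 0.14, adjusted p = 0.238, 95% interval -0.59 to 0.04). With a mean-variance trend in limma it did pass (adjusted p = 0.0194).

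Irf9, the DNA-binding subunit of ISGF3, was at log2 signals of 12.62, 12.48 and 12.74 with LPS alone and 12.29, 12.54 and 12.19 with TsSP. Inulin arrays were at 12.85, 12.92 and 12.60 and those with both agents at 12.24, 12.35 and 12.36. Here too the LPS and TsSP arrays overlapped, with a difference of -0.27 that did not pass (SE 0.14, adjusted p = 0.215, 95% interval -0.57 to 0.02). Its partner Stat2 fell 1.67-fold in the same comparison (adjusted p = 0.000512).

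Irf3, which is made constitutively and is controlled by phosphorylation of its protein, had log2 signals of 11.18, 10.75 and 11.14 with LPS alone and 11.01, 11.05 and 10.83 with TsSP. It was at 11.08, 10.98 and 11.09 with inulin and at 10.71, 10.83 and 10.76 with both. The TsSP difference was -0.06 (SE 0.13, adjusted p = 0.827), with a 95% interval of -0.35 to 0.23 that takes in neither the fall of Irf5 nor that of Irf2. Phosphorylation, on which IRF3, IRF5 and IRF7 activity depends, is not seen on an expression array. Irf4 lay between 3.45 and 4.40 on the log2 scale over the 12 arrays, below background in each, and has no fold.

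**Figure D2:**
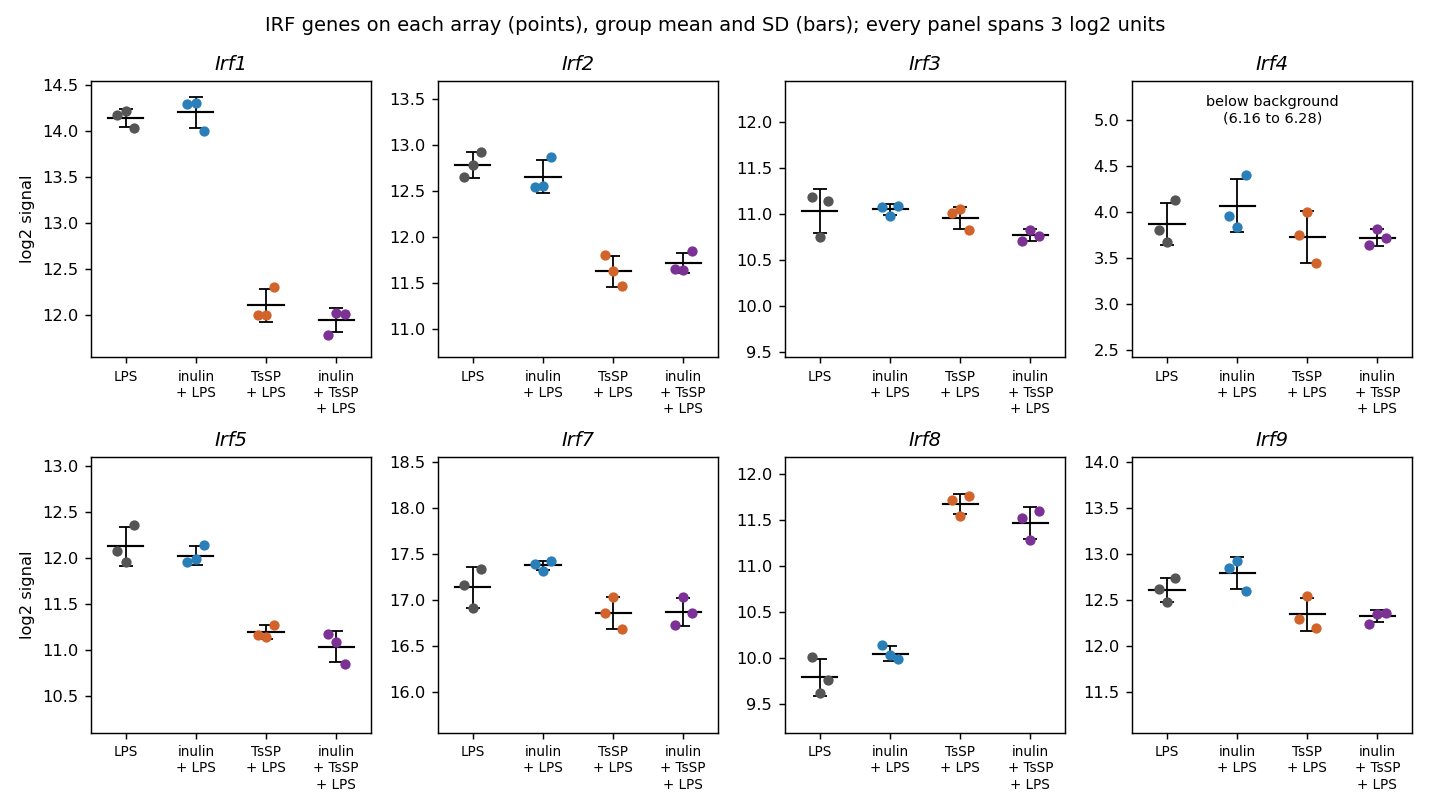
Log2 signal of each IRF gene (y axis, every panel spanning 3 log2 units) on the 12 arrays by treatment group (x axis), with points for arrays and bars for the group mean and SD (n = 3). Irf1, Irf2 and Irf5 are lower and Irf8 is higher on all 6 arrays with TsSP, whereas the groups of Irf3 lie close together and Irf4 is below background.

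The second comparison asked whether inulin changed these genes under LPS. None of the 8 passed, and by the same limma fit 0 of 19505 genes did (0%), although 1143 genes had an unadjusted p under 0.05. Log2 differences of the 7 members above background ran from -0.13 for Irf2 to 0.26 for Irf8, with no SE above 0.14. The LPS and inulin arrays overlapped in every member, and the share of all genes that did so is not given here. When inulin was added to TsSP, the count was again 0 of 8 and 0 of 19505 genes (0%), with 971 at an unadjusted p under 0.05. There the arrays of Irf3 only just did not overlap, and its difference of -0.20 (SE 0.13) did not pass (adjusted p = 0.993). Averaged over arrays with and without TsSP, 6 against 6, a contrast added after the data had been seen, inulin called no gene (0%, 1047 at an unadjusted p under 0.05). The 95% intervals of that averaged inulin difference lay between -0.34 and 0.35 on the log2 scale for the 7 members, all smaller in size than the TsSP differences of Irf1, Irf2, Irf5 and Irf8.

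TsSP and inulin together were then set against LPS alone. The same 4 genes were called as with TsSP alone, 4 of 8 against 17.6% of all genes (10.3% higher and 7.30% lower). The log2 differences were -2.20 for Irf1, -1.07 for Irf2, -1.09 for Irf5 and 1.67 for Irf8, each with SE 0.14. Both comparisons use the LPS-alone arrays, so their likeness is not independent. Irf7 and Irf9 were at -0.26 and -0.30 and did not pass (adjusted p = 0.265 and 0.176).

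TsSP was also added to cells that had inulin, a comparison that shares no array with TsSP against LPS alone. It called 6 of the 8 IRF genes, against 16.7% of all genes (8.66% higher and 7.99% lower). Irf1 fell by 2.26, Irf2 by 0.94 and Irf5 by 0.99 on the log2 scale, and Irf8 rose by 1.42, each with SE 0.14. Irf7 and Irf9 were called as well, at -0.51 (adjusted p = 0.032) and -0.48 (adjusted p = 0.0323), and in both genes the 3 arrays with both agents lay below the 3 with inulin. Each of these calls was lost in 5 of 12 fits that left out 1 array. The highest adjusted p was 0.114 for Irf7, without replicate 1 of the combination, and 0.117 for Irf9, without inulin replicate 2. The arrays of Irf3 did not overlap either, but its difference of -0.28 (SE 0.13) did not pass (adjusted p = 0.200). How many of all genes lacked overlap is not given here for any comparison.

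Set directly against the inulin arrays, TsSP without inulin also called 6 of 8, against 16.7% of genes (9.26% higher and 7.41% lower). It shares the inulin arrays with the comparison just given. Irf7 was at -0.52 (adjusted p = 0.0279) and Irf9 at -0.45 (adjusted p = 0.0406), and leaving out 1 array ended these calls in 5 and 7 of 12 fits. Without TsSP replicate 3 their adjusted p was 0.112 and 0.146. With TsSP averaged over arrays with and without inulin, 6 against 6 and also added after seeing the data, Irf7 differed by -0.39 (SE 0.10, adjusted p = 0.0134) and Irf9 by -0.37 (SE 0.096, adjusted p = 0.0123). That contrast called 25.8% of all genes. Irf3 remained outside it at -0.17 (SE 0.094, adjusted p = 0.233).

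**Figure D3:**
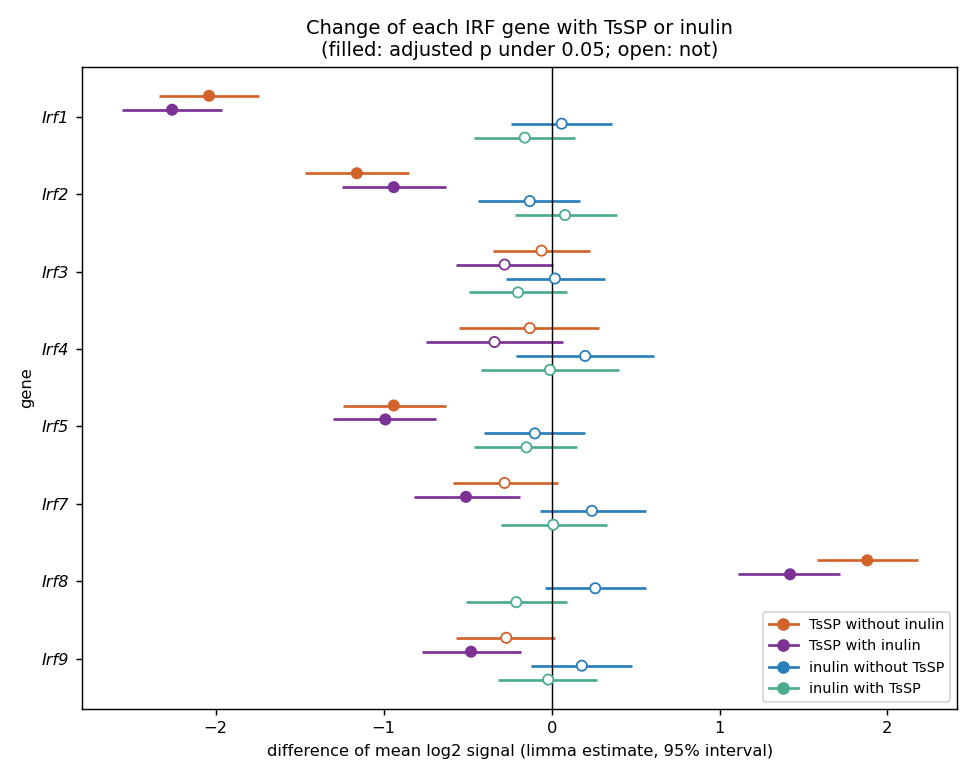
Difference of mean log2 signal with its 95% interval (x axis) for each IRF gene (y axis) with TsSP or inulin, each in the absence and presence of the other agent, filled where the adjusted p is under 0.05. The TsSP intervals of Irf1, Irf2, Irf5 and Irf8 lie away from 0 in both backgrounds, those of Irf7 and Irf9 do so with inulin only, and every inulin interval spans 0.

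Whether TsSP acted differently with and without inulin was tested as an interaction. It called 0 of 8 members and 0 of 19505 genes (0%), with 1089 genes at an unadjusted p under 0.05. The largest of the 8 was that of Irf8, whose rise with TsSP was 1.88 without inulin and 1.42 with it, an interaction of -0.47 on the log2 scale (SE 0.19, 95% interval -0.89 to -0.04) that did not pass over all genes (adjusted p = 0.861). For Irf7 and Irf9 the interaction was -0.23 and -0.20 (SE 0.20 and 0.19, adjusted p = 0.971 for each), so their calls in the inulin background alone do not show a difference between backgrounds.

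Over the 4 groups an F test called Irf1, Irf2, Irf5 and Irf8, 4 of 8 against 18.7% of all genes, and left Irf7 (adjusted p = 0.0583) and Irf9 (adjusted p = 0.0636) outside. Ordered by mean, Irf1 was lowest with both agents, then TsSP, LPS alone and inulin, and the only neighbours that differed past the threshold were TsSP and LPS alone, 2.04 apart. For Irf2 the step that passed was between the combination and inulin (0.94), for Irf5 between TsSP and inulin (0.84), and for Irf8 between inulin and the combination (1.42). In each of these 4 genes, then, the levels formed a pair of groups with TsSP and a pair without, with no called difference inside a pair. Irf3, Irf7 and Irf9 had no called step between neighbouring groups.

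The profiles most like those of the 4 genes were found by the root mean square difference over the 12 arrays, each gene centred on its own mean, among 8826 genes. Closest to Irf1 were Il6, an inflammatory cytokine gene, at 0.130 log2 units, the interferon-induced chemokine gene Cxcl10 at 0.133, and the niacin receptor gene Hcar2 at 0.137, beside a spread of Irf1 about its own mean of 1.08. Irf2 was nearest to Cpeb4 at 0.0994, Cp at 0.116 and Bri3 at 0.122, and Irf5 to the RNA exonuclease gene Xrn1 at 0.110, Sgk3 at 0.122 and the double-stranded RNA receptor gene Tlr3 at 0.124. Irf8 was nearest to Pcyox1 at 0.122, the haem transporter gene Slc48a1 at 0.162 and Svil at 0.165. The 3 nearest to Irf1 differed by -2.09 to -2.11 between TsSP and LPS alone, those nearest to Irf2 by -1.04 to -1.20, those nearest to Irf5 by -0.89 to -1.01 and those nearest to Irf8 by 1.77 to 1.92. The choice by profile fixes this likeness of the TsSP differences, and nothing is read from it.

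The genes that surround the IRFs were counted in TsSP against LPS alone. The upstream list joins genes of LPS sensing, genes of RNA and DNA sensing and the IRF kinases. Of its 16 measured genes, 7 fell and 3 rose, where 7.08% of all genes fell and 11.0% rose. The median log2 difference was -0.33, against 0.02 over all genes. The rises are few enough to lie near the background. The double-stranded RNA sensor gene Ifih1 fell 1.92-fold, the DNA sensor gene Cgas 1.76-fold, Tank, which encodes an adaptor of the IRF kinases, 1.57-fold and the RNA sensor gene Ddx58 1.58-fold. Myd88, the gene of the adaptor upstream of IRF5, fell 1.60-fold. With 1 array left out the count of 7 ranged from 6 to 7, and Ticam2, another gene that fell, lost its call in 4 of 12 fits. Those that rose were the LPS co-receptor gene Ly96 at 1.47-fold, the adaptor gene Mavs at 1.55-fold and Sting1 at 1.35-fold, the last of which lost its call without TsSP replicate 2 (adjusted p = 0.0616). The kinase genes themselves, Tbk1 and Ikbke, differed by -0.26 and -0.31 on the log2 scale and did not pass (adjusted p = 0.156 and 0.0547), and the LPS receptor gene Tlr4 was at -0.04.

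Of 15 measured genes of the interferon receptors and the JAK-STAT pathway, 6 fell and 4 rose, beside 7.08% and 11.0% of all genes (median -0.28). The feedback genes Socs1 and Usp18 fell 3.47-fold and 1.93-fold, and Stat2 1.67-fold. Ifnb1, the interferon beta gene, passed as lower but was below background on every array of both groups and has no fold. The receptor genes Ifnar1 and Ifngr2 rose 1.94-fold and 1.42-fold, and Stat3 and Socs3 rose 1.27-fold and 1.29-fold. The count of 4 was 2 after quantile normalization or centring of arrays, since Stat3 and Socs3 then missed the threshold, and it ranged from 1 to 4 when 1 array was left out. It was 2 without any 1 of the 3 LPS arrays or TsSP replicate 1 or 3, and 1 without TsSP replicate 2. Stat3 lost its call in 6, Socs3 in 10 and Ifngr2 in 1 of these 12 fits (Ifngr2 without TsSP replicate 2, adjusted p = 0.0505). The count of 6 that fell ranged from 5 to 6, and Jak2, among them, lost its call in 5 of the 12 fits.

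Of 14 measured DNA-binding partners, 3 fell and 3 rose, beside 7.08% and 11.0% of all genes, so the rises are again few enough to lie near the background (median -0.15). Batf2, which encodes a leucine zipper partner of IRF1, fell 4.52-fold (adjusted p = 3.98e-07), the AP-1 gene Junb 1.64-fold and the lymphoid and myeloid factor gene Ikzf1 1.67-fold. Bcl6, a repressor gene, rose 2.07-fold, Ets1, below background on the 3 LPS arrays, was at least 1.5-fold higher, and Jun rose 1.34-fold, a call lost in 4 of 12 fits with 1 array left out (adjusted p = 0.127 without TsSP replicate 2). Spi1, the gene of PU.1 and so of the partner of IRF8, had mean log2 signals of 17.69 with LPS and 17.82 with TsSP and did not pass (adjusted p = 0.463).

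Of 12 measured genes whose products bind or destabilise IRF proteins, 3 fell and 2 rose, beside 7.08% and 11.0% of all genes, so the rises are few enough to lie near the background (median -0.04). Trim21, which encodes a ubiquitin ligase with IRF targets, fell 6.21-fold (adjusted p = 9.26e-07), the ubiquitin ligase gene Peli1 3.06-fold, and Fbxw7 1.54-fold, a call lost in 3 of 12 fits with 1 array left out (adjusted p = 0.105 without TsSP replicate 3). Both that rose encode proteins of the IRF2-binding family, Irf2bpl at 3.35-fold (adjusted p = 9.29e-06) and Irf2bp2 at 3.15-fold (adjusted p = 4.86e-05), and the third of that family, Irf2bp1, was at 0.18 and did not pass. Irf2 fell in the same comparison, and a relation between these changes was not tested.

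Known targets were read as separate lists, which overlap with genes that NF-kB and STATs also control. Like the lists above, they were chosen with earlier results of these data known, so their counts are not an independent test. Of 18 measured genes linked to IRF1, 15 fell and 0 rose at the adjusted threshold, beside 7.08% and 11.0% of all genes (median -0.78). They were led by the cytokine subunit gene Il27 at 39.6-fold, the chemokine gene Cxcl9 at 23.3-fold, the cytokine gene Il15 at 5.34-fold and Cxcl10 at 4.27-fold. B2m, Casp1 and Ciita did not pass, with log2 differences of -0.02, -0.21 and 0.04, and Ciita was below background. Of 18 measured genes with ISREs that answer to IRF3, IRF7 and ISGF3, 17 fell and 0 rose, beside 7.08% and 11.0% (median -0.69). Irf3, Irf7 and Irf9 themselves did not pass in this comparison. With inulin present, TsSP did call Irf7 and Irf9 lower (-0.51 and -0.48), though leaving out 1 array could end those calls. Ifit3, Ifit1, Mx1 and Ifit2, all antiviral genes, fell 3.44-fold, 3.51-fold, 3.06-fold and 3.78-fold, and Oasl2 was the gene that did not pass, at -0.11. Oas2 was the least secure of the calls (adjusted p = 0.0482), lost in 11 of 12 fits with 1 array left out, and the count of 17 ranged from 15 to 17. In the same fits the count of 15 for IRF1-linked genes ranged from 14 to 15.

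Of 13 measured genes linked to IRF8, 1 rose and 3 fell, beside 11.0% and 7.08% of all genes, so the rise lies near the background (median -0.18). The list does not separate genes that IRF8 raises from genes that it lowers, so no direction was set for it. The gene that rose was Naaa, which encodes a lysosomal lipid amidase, at 2.23-fold, and those that fell were Il18 at 1.95-fold, Ly86 at 1.66-fold and the oxidase subunit gene Ncf1 at 1.38-fold. The lysosomal and phagocyte genes Cst3, Ctsc and Mpeg1 were at 0.11, 0.10 and -0.18 on the log2 scale and did not pass. With a mean-variance trend in limma the list had 2 higher and 5 lower genes, and without LPS replicate 3 it had 2 higher, Nf1 being added.

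In the presence of inulin, where other arrays enter on both sides, 8.66% of all genes were higher with TsSP and 7.99% lower. The sensing and kinase genes had 6 lower and 3 higher, the interferon receptor and JAK-STAT genes 6 and 4, the DNA-binding partners 3 and 2, and the genes of IRF-binding proteins 3 and 2. The IRF1-linked genes had 15 lower and 0 higher (median -0.80), the ISRE genes 17 and 0 (median -0.82) and the IRF8-linked genes 4 and 1 (median -0.19), against a median of -0.00 over all genes. Inulin called no gene of any of these 7 lists by limma, with or without TsSP, and neither did the interaction, the counts over all genes being those given above.

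**Figure D4:**
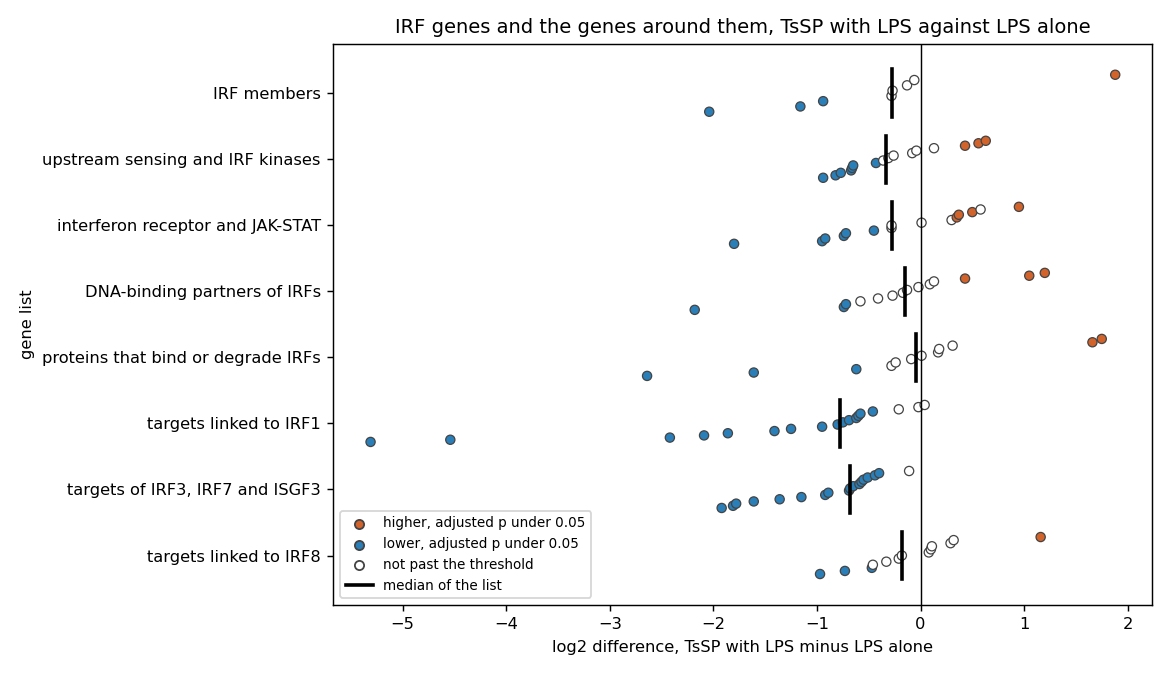
Log2 difference between TsSP with LPS and LPS alone (x axis) for every measured gene of the IRF family and of the 7 lists around it (y axis), coloured where the adjusted p is under 0.05, with a bar at the median of each list. The lists of IRF1 targets and of ISRE genes lie almost wholly below 0, at medians of -0.78 and -0.69, and the other lists spread to both sides.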

How the data were processed

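RNA was taken up on RNeasy columns and biotin-labelled for Affymetrix arrays, per the labels' protocols. The deposited values are log2 signals per probe set, used unchanged. The log base is inferred from their range (1.32 to 18.9). How the authors corrected background and normalized is not given in the sources used, and any compression of signals would carry into the folds.

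Of 28846 probe sets, 19572 named 1 gene and 0 several, which left 19505 genes with the brightest probe set of each. Each comparison was a contrast in a limma 3.58.1 model (R 4.3.3) with a mean per group over 12 arrays, two-sided, with Benjamini-Hochberg adjustment over all genes at 0.05. The model was also run on simulated arrays with independent noise, which cannot show how effects shared between arrays would alter the calls. Folds are 2 to the power of the log2 difference, and SE is limma's. Above background means over the brightest of 23 background probes on all 3 arrays of a group, and "at least" folds use that level for the dimmer group. All members are named, and each list is shown by the 4 genes of lowest p, by all genes behind counts up to 5, and by others needed to account for it. Listed genes without a match were not analysed here. Members and lists were chosen with earlier results of these data known. Same-numbered arrays did not deviate together (r from -0.094 to 0.10 over 18 pairs). Promoter windows are RefSeq's, GRCm38.p6. Figures used matplotlib 3.10.9. Alternatives were other scalings, filters, fits and left-out arrays.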

Additional observations from a re-analysis of the deposited data

How the results depend on the processing

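The calls of Irf1, Irf2, Irf5 and Irf8 with TsSP against LPS alone kept direction and threshold in 19 of 19 alternatives, with log2 changes of -2.15 to -1.99, -1.25 to -1.05, -1.02 to -0.82 and 1.65 to 1.99. The count of called members in that comparison was 4 in each fit with 1 array left out, 5 with a mean-variance trend and 6 with TsSP averaged over both backgrounds. With 1 array left out it was 4 to 6 for TsSP added to inulin and for TsSP against inulin, and 4 to 5 in the F test. The F test called 5 members after quantile normalization or centring, and 6 with a mean-variance trend or among genes above background only. The replicate block left 4 members called for TsSP against LPS alone, and 4 in place of 6 for TsSP added to inulin (Irf7 adjusted p = 0.0625, Irf9 0.057) and for TsSP against inulin (0.0564 and 0.0684). Fitting only the groups compared ended the Irf9 calls there (0.0626 and 0.0937). A mean-variance trend added Irf7 to the calls of both agents against LPS alone (adjusted p = 0.0266). The cause was not tested.

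Changes of sign occurred only in differences that passed in no setting. After quantile normalization these were Irf3 with inulin (-0.04), Irf7 with inulin added to TsSP (-0.03) and the interaction of Irf5 (0.00). After centring it was Irf3 with inulin (-0.00), and with inulin averaged over both backgrounds Irf1 (-0.05) and Irf3 (-0.09). With 1 array left out, the TsSP difference ranged from -0.20 to 0.02 in Irf3 and from -0.27 to 0.01 in Irf4. The inulin difference ranged from -0.11 to 0.10 in Irf3 and from -0.19 to 0.01 in Irf5. With inulin added to TsSP the ranges were -0.15 to 0.13 in Irf4, -0.07 to 0.10 in Irf7 and -0.10 to 0.08 in Irf9, and the Irf5 interaction ranged from -0.17 to 0.04. Among genes above background only, IRF8-linked genes had 2 higher in place of 1. A second probe set per member could not be tried, since each has 1. With 3 arrays a group, the number of arrays limits the precision.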
